A study of Homo sapiens with 8 samples.

Results

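The genes described here encode subunits of the proteasome's core and of its regulatory particle, and 3 chaperones that guide assembly of the particle's base. They are the protein-coding genes of the deposited count table whose symbol is PSMA, PSMB, PSMC or PSMD followed by a number, without PSMB8 and PSMB9, which are set beside them as interferon-inducible subunits. This gave 37 genes out of 58735. Of these, 17 are core genes (PSMA and PSMB) and 20 are regulatory genes (PSMC and PSMD, the chaperones included). The series sequenced the RNA of SV-HUC1 cells from 4 cultures given 20 mU of glucose oxidase per ml of medium for 24 h, and from 4 untreated control cultures collected at 24 h. SV-HUC1 is an established line of human urothelial cells immortalised with SV40, so all cultures of both groups carry that viral transformation and stem from a single line. Glucose oxidase makes hydrogen peroxide from the glucose of the medium, and no group with inactive enzyme or with peroxide alone was analysed here. The series asks how urothelial cells respond to low-grade oxidative stress.

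The proteasome degrades proteins tagged with ubiquitin. Its core is a barrel of stacked rings: PSMA genes encode the outer alpha rings, which gate the entrance, and PSMB genes the inner beta rings, which hold the cutting sites. The regulatory particle binds the ends of the barrel, takes up ubiquitinated proteins, removes the ubiquitin and unfolds them with a ring of ATPases encoded by PSMC genes. Cells under mild oxidative stress are known to rely on the core for the removal of oxidised proteins. The transcription factor NFE2L1, which binds antioxidant response elements together with small MAF proteins, drives most subunit genes when proteasome activity falls short.

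Libraries held 21437267 to 27183692 counts in glucose oxidase cultures and 21653952 to 23543702 in controls. The libraries with replicate numbers 1 and 2 stood apart from those numbered 3 and 4 in both groups, a division that the labels do not name. Of the 17413 genes with enough counts to be tested, 35 were members: all 20 regulatory genes and 15 of the 17 core genes. PSMA8, an alpha subunit of the testis, had 0, 0, 1 and 1 counts in glucose oxidase replicates 1 to 4 and 2, 0, 3 and 2 in controls 1 to 4. PSMB11, a catalytic subunit of the thymus, had a single count, in control 2. Neither was tested.

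Most proteasome messages had lower fitted levels in glucose oxidase cultures than in controls, and 4 core and 3 regulatory genes fell once libraries were paired by replicate number. The median fitted log2 change was -0.41 over the 15 core genes and -0.18 over the 20 regulatory genes, against -0.01 over all genes tested. The difference between the core and regulatory medians was not tested. The change lay below 0 in 14 core genes and 16 regulatory genes, against 50.7% of all genes tested. Fitted with the replicate number as a block, 7 of the 35 members fell at an adjusted p below 0.05 (20.0%), against 6.97% of all genes tested, and 0 rose, against 7.51% of all genes. These were the core genes PSMA2, PSMA3, PSMB3 and PSMB10 and the regulatory genes PSMC6, PSMD10 (a chaperone of base assembly) and PSMD13. With replicate 1 left out 4 members fell, against 4.17% of all genes. With replicate 2 left out 2 fell (PSMA2 and PSMB3), against 3.71%, and with replicate 3 left out 2 fell (PSMA2 and PSMA3), against 2.85%, each 5.71% of members. With replicate 4 left out 6 fell, against 5.12%. With library totals in place of TMM 3 fell, against 3.07%, and when the fit held a term for the sets of replicates (1 with 2, 3 with 4) and no block, 1 fell (2.86%), against 3.07% of all genes. DESeq2 with the same block called 12 members lower, against 8.69% of its genes: the 7 above with PSMA1, PSMA4, PSMA7, PSMB1 and PSMB4. Without the block, edgeR's quasi-likelihood test called 0 members and 0.0% of all genes, and 1 member, PSMB10, passed at an unadjusted p below 0.05, against 7.37% of genes. DESeq2 without the block also called 0 members, against 0.214% of its genes called lower. All "rose", "fell" and "passed" below refer to the blocked edgeR fit, with Benjamini-Hochberg adjustment over 17413 genes. In bulk RNA, a smaller share of cells holding a message and less of it per cell cannot be told apart. In the coordinates of the count table (GRCh38), PSMA2 lies at chr7:42916857-42932223 (minus strand), PSMA3 at chr14:58244831-58272012 (plus strand), PSMB3 at chr17:38752736-38764231 (plus strand) and PSMB10 at chr16:67934502-67937087 (minus strand). PSMC6 lies at chr14:52707172-52728587 (plus strand), PSMD10 at chrX:108084207-108091618 (minus strand) and PSMD13 at chr11:236546-252984 (plus strand).

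**Figure D1:**
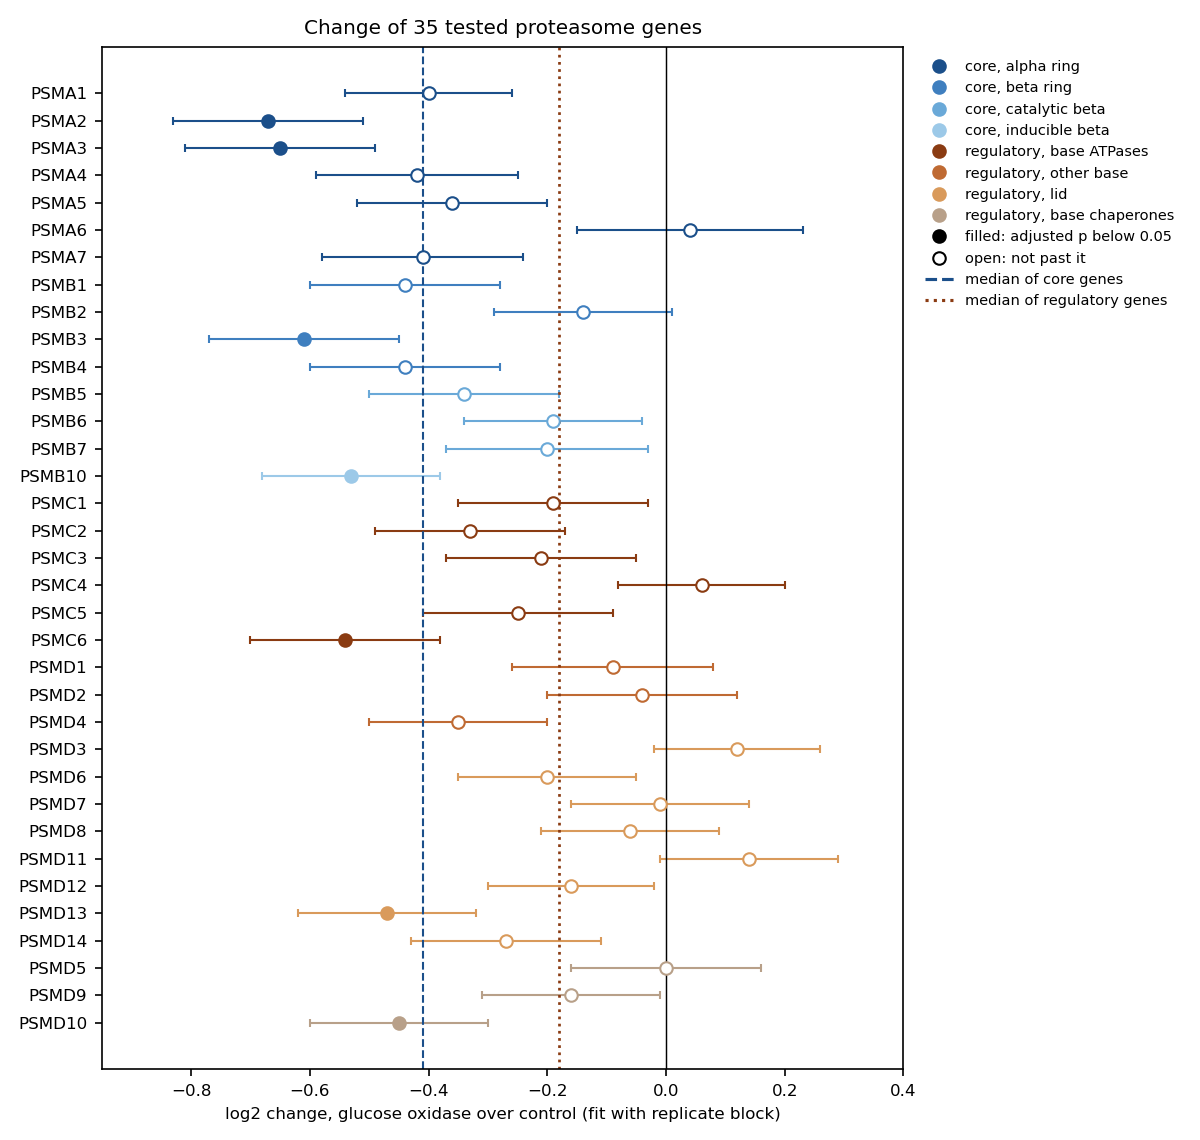
Fitted log2 change of each tested member, glucose oxidase over control, with its standard error (n = 4 libraries per group), grouped by role. Filled points passed an adjusted p below 0.05; the 4 filled core genes and 3 filled regulatory genes all lie left of 0, and 30 of the 35 points do.

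The stretch just before the start site of 3 members is shown because it holds, or lacks, the letters that NFE2L1 and its partners are known to bind. PSMA3 and PSMB3 are core genes that fell, and PSMD3 is a lid gene that did not pass. Each is printed 5′ to 3′ from 150 bases before the RefSeq start to the base before it (GRCh38.p14), with the antioxidant response element core TGACNNNGC in capitals.
PSMA3, chr14:58244693-58244842, plus strand: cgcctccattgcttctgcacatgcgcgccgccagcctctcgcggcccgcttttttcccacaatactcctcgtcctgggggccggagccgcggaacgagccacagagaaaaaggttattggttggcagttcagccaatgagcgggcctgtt
PSMB3, chr17:38752591-38752740, plus strand: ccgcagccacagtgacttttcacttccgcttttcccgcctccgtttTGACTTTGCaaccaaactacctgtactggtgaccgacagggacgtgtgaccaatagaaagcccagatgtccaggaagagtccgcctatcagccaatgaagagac
PSMD3, chr17:39980657-39980806, plus strand: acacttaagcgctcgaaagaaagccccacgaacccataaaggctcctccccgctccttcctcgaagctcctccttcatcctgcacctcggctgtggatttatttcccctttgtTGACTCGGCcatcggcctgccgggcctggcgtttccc
The core starts 104 bases before the PSMB3 start and 37 bases before the PSMD3 start, and PSMA3 has none here. PSMD3 holds a second one at base 34 after its start, outside the stretch shown. RefSeq start windows of 300 bases (250 before to 50 after the start) were matched for 32 of the 37 members. Searched on both strands, TGACNNNGC stood in 7 of these (21.9%), against 13.6% of 27305 promoters: PSMB3, PSMC4, PSMD1, PSMD3, PSMD5, PSMD9 and PSMD12. Among the 7 members that fell, PSMB3 was the one that held it, and the other 6 holders did not pass the test. CCAAT, the box bound by NF-Y, stood in 16 member windows (50%), against 35.7% of all promoters, and 4 of the members that fell had it (PSMA2, PSMA3, PSMB3 and PSMD10). CCGGAAGT, a core bound by ETS factors, stood in 7 (21.9%), against 4.44%, and of the members that fell only PSMD13 had it. In no member window did a match of one motif overlap a match of another, and a match is a match of letters, not a measured binding site.

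Of the 7 tested alpha ring genes, 2 fell and 0 rose, with a median log2 change of -0.41. PSMA2 had 8.63, 5.47, 13.8 and 10.1 CPM (counts per 1000000, scaled by the TMM method) in glucose oxidase replicates 1 to 4, against 12.6, 9.71, 21.9 and 16.0 CPM in controls 1 to 4. Every glucose oxidase culture was below the control of its own number, while the ranges of the groups overlapped. Its log2 change was -0.67 ± 0.16 (SE, n = 4 per group), with an adjusted p of 0.00479. PSMA3 had 280.7, 154.1, 542.7 and 534.2 CPM in glucose oxidase cultures, against 456.2, 278.8, 925.5 and 644.0 CPM in controls. Again all 4 pairs were lower and the ranges overlapped, and its log2 change was -0.65 ± 0.16 (SE, adjusted p = 0.00812). PSMA1 had 34.8, 26.4, 58.9 and 60.5 CPM in glucose oxidase cultures, against 40.6, 33.7, 95.5 and 75.3 CPM in controls. Lower in 4 of 4 pairs, it missed the threshold at -0.40 ± 0.14 (SE, adjusted p = 0.0516). PSMA6 had 11.9, 7.47, 13.3 and 12.8 CPM in glucose oxidase cultures, against 6.74, 11.5, 13.6 and 12.7 CPM in controls. It was higher in pair 1 and lower in pair 2, and its log2 change was 0.04 ± 0.19 (SE, adjusted p = 0.906). The remaining alpha genes PSMA4, PSMA5 and PSMA7 were lower in 4 of 4 pairs each, with log2 changes of -0.42, -0.36 and -0.41 and adjusted p-values from 0.0946 to 0.141.

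For 3 alpha genes the count is uncertain, because they share exons with another gene. Another annotated protein-coding gene on the same strand covers 53.2% of the principal PSMA1 transcript, 52.5% of that of PSMA2 and 81.0% of that of PSMA6. Reads there cannot be assigned by position, how they were counted is not stated, and these 3 genes were the lowest of the tested alpha genes. The same holds for 45.3% of PSMB10 and 43.8% of PSMD9. Leaving the members with such an overlap out of the count, a step added after the data were seen, used the same fit. It only removes PSMA2 and PSMB10 from the genes that fell, so 5 remain, against 6.97% of all genes tested.

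Among the beta ring genes that form the ring without cutting, PSMB3 fell, and PSMB1, PSMB2 and PSMB4 did not pass by edgeR, while PSMB1 and PSMB4 did by DESeq2 with the block (adjusted p = 0.0184 and 0.0204). PSMB3 had 183.0, 130.3, 389.9 and 399.4 CPM in glucose oxidase cultures, against 288.1, 171.9, 758.7 and 533.1 CPM in controls. It was lower in 4 of 4 pairs, with a log2 change of -0.61 ± 0.16 (SE, adjusted p = 0.0108), and the ranges overlapped. PSMB1 had 170.5, 140.8, 383.7 and 407.3 CPM in glucose oxidase cultures, against 247.9, 153.0, 669.0 and 502.3 CPM in controls (log2 change -0.44 ± 0.16, SE, adjusted p = 0.0602). PSMB4 had the same fitted change, -0.44 (adjusted p = 0.0617), and both were lower in 4 of 4 pairs. PSMB2 had 89.8, 108.7, 122.1 and 140.8 CPM in glucose oxidase cultures, against 107.3, 92.1, 152.3 and 163.8 CPM in controls. In 3 of 4 pairs it was lower, with a log2 change of -0.14 ± 0.15 (SE, adjusted p = 0.576).

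None of the 3 constitutive catalytic subunits passed the test, and their median log2 change was -0.20. PSMB5, which cuts after hydrophobic residues and is the main target of proteasome inhibitor drugs, had 152.8, 107.5, 207.8 and 241.4 CPM in glucose oxidase cultures. In controls it had 186.0, 116.0, 369.5 and 268.6 CPM. All 4 pairs were lower, pair 3 most, and its log2 change was -0.34 ± 0.16 (SE, adjusted p = 0.14). PSMB6, which cuts after acidic residues, had 81.4, 97.3, 94.1 and 106.7 CPM in glucose oxidase cultures, against 100.5, 79.9, 135.1 and 123.9 CPM in controls. In 3 of 4 pairs it was lower (log2 change -0.19 ± 0.15, SE, adjusted p = 0.433). PSMB7, which cuts after basic residues, had 306.9, 259.1, 583.7 and 626.5 CPM in glucose oxidase cultures, against 290.2, 241.1, 946.1 and 760.4 CPM in controls. It was higher in pairs 1 and 2 and lower in pairs 3 and 4 (log2 change -0.20 ± 0.17, SE, adjusted p = 0.476).

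PSMB10, the inducible subunit that takes the place of PSMB7 in the immunoproteasome, fell. It had 74.3, 52.6, 75.0 and 72.8 CPM in glucose oxidase cultures, against 108.4, 100.5, 107.6 and 79.7 CPM in controls. Its log2 change was -0.53 ± 0.15 (SE, adjusted p = 0.0155). PSMB10 was the only tested member whose 4 glucose oxidase libraries all lay below all 4 controls, 1 of 35, against 2.6% of all genes tested. Its level differed least between the sets of cultures among the core genes that fell. The other inducible subunits, PSMB8 and PSMB9, did not pass. PSMB8 had 96.4, 81.1, 83.9 and 85.0 CPM in glucose oxidase cultures and 147.1, 103.1, 95.2 and 80.3 CPM in controls (log2 change -0.26 ± 0.15, SE, adjusted p = 0.235). PSMB9 had 100, 85.4, 115.8 and 121.5 CPM in glucose oxidase cultures and 123.8, 78.2, 170.2 and 121.1 CPM in controls (log2 change -0.18 ± 0.15, SE, adjusted p = 0.446). The summed CPM of PSMB8, PSMB9 and PSMB10 over that of PSMB5, PSMB6 and PSMB7 was 0.500, 0.472, 0.310 and 0.287 in glucose oxidase replicates 1 to 4, against 0.658, 0.645, 0.257 and 0.244 in controls 1 to 4. That ratio was lower with glucose oxidase in pairs 1 and 2 and higher in pairs 3 and 4.

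**Figure D2:**
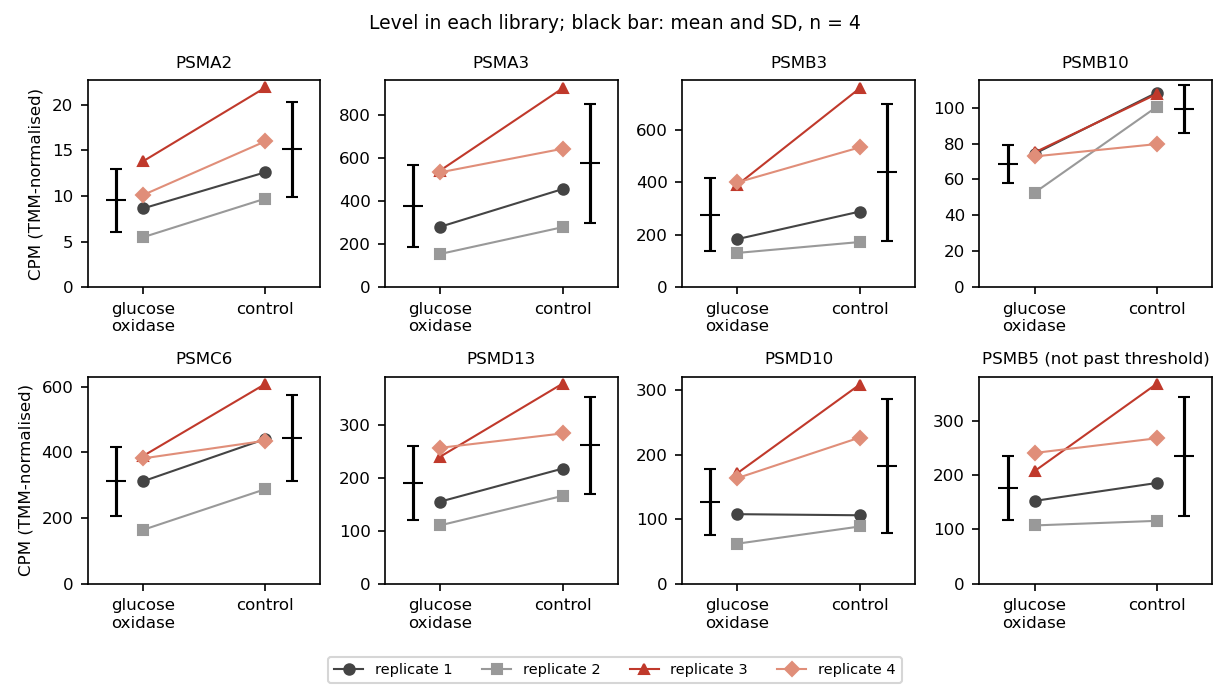
CPM in each library of the 7 members that fell and of PSMB5, which did not pass, with lines joining libraries of the same replicate number and black bars for the mean and SD (n = 4 per group). PSMB10 is the only panel in which every glucose oxidase library lies below every control; in the others the ranges of the groups overlap.

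In the base of the regulatory particle, 1 of the 6 ATPase genes fell and 0 rose (median log2 change -0.23). PSMC6 had 312.2, 164.0, 389.3 and 382.0 CPM in glucose oxidase cultures, against 441.4, 288.3, 609.4 and 436.0 CPM in controls. It was the only ATPase lower in 4 of 4 pairs, with a log2 change of -0.54 ± 0.16 (SE, adjusted p = 0.0228). PSMC2 had 399.6, 229.1, 575.2 and 585.4 CPM in glucose oxidase cultures, against 397.2, 311.7, 912.4 and 683.2 CPM in controls (log2 change -0.33 ± 0.16, SE, adjusted p = 0.181). PSMC5 had 54.6, 75.7, 79.9 and 78.6 CPM in glucose oxidase cultures, against 74.9, 53.7, 112.4 and 111.8 CPM in controls (log2 change -0.25 ± 0.16, SE, adjusted p = 0.33). PSMC5 was higher in pair 2 and lower in the other pairs. PSMC4 had 74.3, 85.6, 61.2 and 69.5 CPM in glucose oxidase cultures and 71.0, 72.3, 62.5 and 72.4 CPM in controls, a narrow range over all libraries. Its log2 change was 0.06 ± 0.14 (SE, adjusted p = 0.836). PSMC1 and PSMC3 had log2 changes of -0.19 and -0.21, with adjusted p-values of 0.449 and 0.407. Genes on the opposite strand cover 82.1% of the principal PSMC1 transcript and 27.2% of that of PSMC5, and 13 pseudogenes carry the PSMC1 name.

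Of the other base subunits none passed (median log2 change -0.09). PSMD4, the ubiquitin receptor of the base, had 212.9, 180.1, 204.4 and 230.4 CPM in glucose oxidase cultures, against 308.1, 195.2, 314.8 and 249.0 CPM in controls. It was lower in 4 of 4 pairs, with a log2 change of -0.35 ± 0.15 (SE, adjusted p = 0.132). PSMD1 and PSMD2, the scaffold proteins that dock ubiquitin receptors and shuttle factors, had log2 changes of -0.09 and -0.04 (adjusted p = 0.786 and 0.906). PSMD1 was higher in pairs 1 and 2, by 0.16 and 0.56, and lower in pairs 3 and 4, at -0.66 and -0.41.

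Of the 8 lid genes 1 fell and 0 rose (median log2 change -0.11). PSMD13 had 154.7, 110.0, 239.5 and 256.2 CPM in glucose oxidase cultures, against 217.0, 165.5, 377.3 and 283.4 CPM in controls. It was lower in 4 of 4 pairs, with a log2 change of -0.47 ± 0.15 (SE, adjusted p = 0.0356), and 15.9% of its principal transcript is covered by a gene on the opposite strand. PSMD14, the enzyme that cuts ubiquitin chains off the substrate, had a log2 change of -0.27 ± 0.16 (SE, adjusted p = 0.259). The lid genes PSMD3 and PSMD11 lay above 0, at 0.12 and 0.14 (adjusted p = 0.611 and 0.578). PSMD6, PSMD7, PSMD8 and PSMD12 had log2 changes from -0.20 to -0.01 and adjusted p-values from 0.389 to 0.962. A gene on the opposite strand covers 50.4% of the principal PSMD7 transcript.

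PSMD5, PSMD9 and PSMD10 are not part of the finished particle but chaperones that guide assembly of its base. PSMD10, also known as gankyrin, had 107.8, 62.0, 171.5 and 163.8 CPM in glucose oxidase cultures, against 106.1, 88.7, 309.1 and 226.8 CPM in controls. It fell by 0.45 ± 0.15 on the log2 scale (SE, adjusted p = 0.0475), and was level in pair 1 and lower in the other 3 pairs. PSMD5 had 71.1, 66.7, 124.9 and 112.7 CPM in glucose oxidase cultures, against 48.1, 57.1, 156.4 and 151.8 CPM in controls. Its differences ran in opposite directions, higher in pairs 1 and 2 and lower in pairs 3 and 4, and its log2 change was 0.00 ± 0.16 (SE, adjusted p = 0.989). PSMD9 lay between 12.2 and 15.6 CPM in all 8 libraries, with a log2 change of -0.16 ± 0.15 (SE, adjusted p = 0.528).

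Per length of gene, as the authors' FPKM values give it, members spanned a wide range of levels. PSMA7 had the highest mean, at 314.2 ± 79.2 FPKM in glucose oxidase cultures and 432.8 ± 165.8 FPKM in controls (SD, n = 4). PSMB3 had 231.2 ± 119.0 FPKM in glucose oxidase cultures and 371.0 ± 229.8 FPKM in controls, and PSMB7 had 245.5 ± 106.4 and 312.7 ± 201.0 FPKM in the same groups. Within libraries PSMA7 was above PSMB7 in 8 of 8 and above PSMB3 in 7 of 8, all but control 3, where PSMB3 had 655.4 FPKM and PSMA7 638.7. PSMB3 was above PSMB7 in 5 of 8. PSMA2, PSMA6 and PSMD9 were the lowest of the tested members, at mean levels of 2.28, 1.71 and 1.55 FPKM over all libraries. Each shares exons with another gene on the same strand, as given above, so these low levels are uncertain. The deposited length sums all annotated exons of a gene, which for PSMD6 and PSMA6 is 6.38 and 6.32 times the length of the principal transcript. The order depends on the length used. By mean CPM per kilobase of principal transcript it was PSMA7 (662.3), PSMB7 (512.0), PSMA3 (491.8) and then PSMB3 (461.6).

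**Figure D3:**
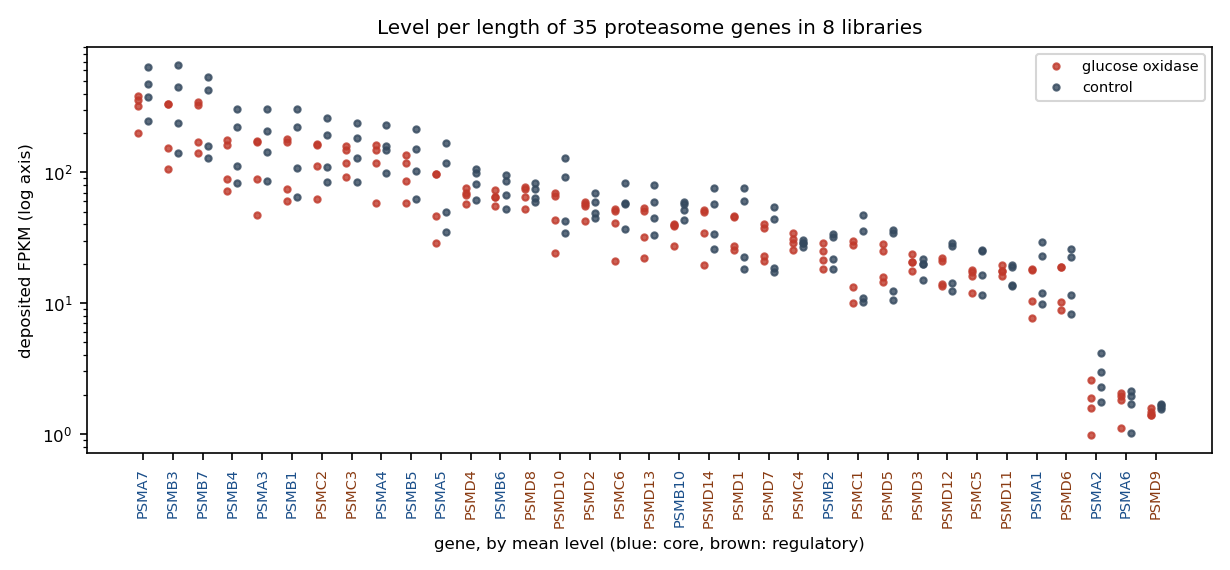
Deposited FPKM of the 35 tested members in each library on a log axis, ordered by mean level, with glucose oxidase libraries left of controls. PSMA7, PSMB3 and PSMB7 stand highest. PSMA2, PSMA6 and PSMD9, which share exons with another gene on the same strand, form a separate low group.

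The direction differed in extent from pair to pair. The median difference of log2 CPM over core genes was -0.30, -0.29, -0.70 and -0.28 in pairs 1 to 4, and over regulatory genes it was -0.02, 0.10, -0.47 and -0.21. Over all genes tested it lay between -0.01 and 0.00. The number of members lower with glucose oxidase was 23, 21, 34 and 32 of 35 in pairs 1 to 4. In all 4 pairs 0 members were higher, against 2937 of the 17413 genes tested. Lower in all 4 pairs were 15 of the 35 members (11 core and 4 regulatory genes), against 17.1% of all genes tested. The 4 regulatory genes were PSMC6, PSMD4, PSMD9 and PSMD13. PSMA6, PSMB2, PSMB6 and PSMB7 were the core genes that were not.

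**Figure D4:**
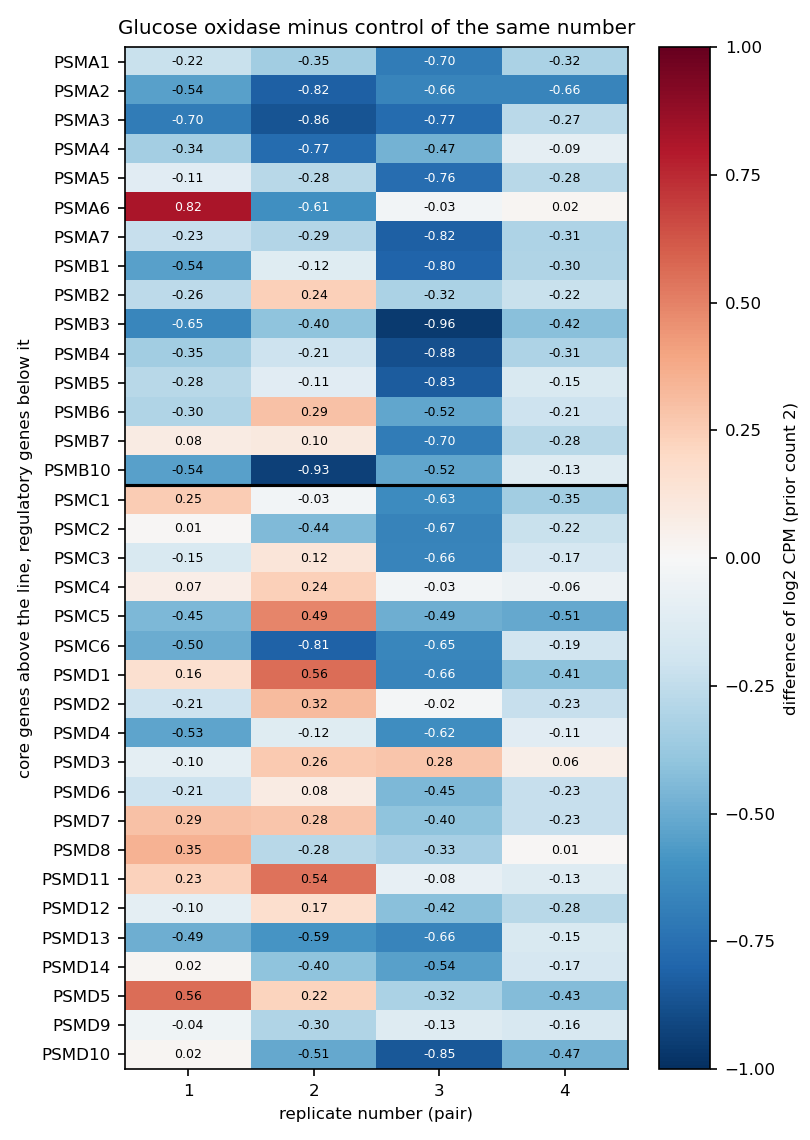
Difference of log2 CPM, glucose oxidase minus control, for each tested member (rows) in the libraries of each replicate number (columns). Pair 3 is lower in nearly every row, while pairs 1 and 2 hold both signs among the regulatory genes below the black line.

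The control of pair 3 had the highest level of all 8 libraries in 28 of the 35 tested members (13 core and 15 regulatory genes). The same count was not made over all genes tested, so whether this is particular to the members is not known. Leaving out both libraries numbered 3, the median log2 change was -0.29 over core genes and -0.07 over regulatory genes, and 2 members fell, PSMA2 and PSMA3. Leaving out control 3 alone, without the block, the medians were -0.14 and -0.01, against -0.45 and -0.26 with all libraries. The TMM factor of control 3 was also the lowest, at 0.768, against 0.888 to 1.17 in the other libraries. The part of library composition in the result was not tested. With library totals in place of TMM the median of all genes moved to 0.10, the core and regulatory medians to -0.30 and -0.07, and 3 members fell (PSMA2, PSMA3 and PSMB3).

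Members also differed between the sets of cultures within each group. The mean CPM of replicates 3 and 4 over that of replicates 1 and 2 had a median over core genes of 1.74 in glucose oxidase cultures and 2.11 in controls. In controls it ran from 0.897 for PSMB10 to 3.23 for PSMA5, and 8 of 15 core genes were at least 2-fold higher in replicates 3 and 4. Over regulatory genes the median was 1.58 in glucose oxidase cultures and 1.82 in controls, and PSMC1 had the largest ratio, 2.43 and 3.73 in these groups. These ratios were not computed over all genes tested, so whether they are particular to the members is not known. Over all genes tested, deviations from the group mean correlated at -0.678 to -0.402 between libraries of different sets. With a term for these sets in place of the replicate block, 1 member fell (PSMA2, adjusted p = 0.0415 by edgeR), against 3.07% of all genes.

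Whether glucose oxidase acted differently in the sets was tested as the difference of changes, replicates 3 and 4 minus replicates 1 and 2. By edgeR 0 members passed, against 0.902% of all genes, and 4 members (PSMC1, PSMD1, PSMD5 and PSMD7) had an unadjusted p below 0.05, against 11.7% of all genes. The median difference over members was -0.23, and 27 of 35 lay below 0, against 8635 of 17413 genes tested. The core and regulatory medians of this difference were -0.22 and -0.25, and with library totals they were -0.03 and -0.05, where the median of all genes moved to 0.20. PSMD1 and PSMD5 had the smallest adjusted p-values, at differences of -0.90 (adjusted p = 0.136) and -0.77 (adjusted p = 0.193).

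Summed over genes, core messages made up 3262.5, 2211.7, 5142.5 and 5277.5 CPM in glucose oxidase replicates 1 to 4, against 4109.6, 2852.3, 8445.6 and 6282.3 CPM in controls 1 to 4. Regulatory messages made up 3086.2, 2546.4, 4137.1 and 4249.8 CPM in glucose oxidase cultures, against 3344.3, 2678.3, 5947.2 and 4943.9 CPM in controls. Both sums were lower in 4 of 4 pairs, while the ranges of the groups overlapped. The ratio of the core sum to the regulatory sum was 1.06, 0.869, 1.24 and 1.24 in glucose oxidase cultures, against 1.23, 1.06, 1.42 and 1.27 in controls. It too was lower in 4 of 4 pairs, at 1.10 ± 0.177 in glucose oxidase cultures and 1.25 ± 0.148 in controls (SD, n = 4), a difference within the spread of the unpaired groups. A ratio within a library does not depend on the scaling between libraries, but it can still carry a trend with transcript length. The part of length in this ratio was not tested, and control 3 had the highest ratio.

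Length was taken into account in a pair of further fits. With a correction for any trend of the change with principal transcript length, added after the data were seen, the core median was -0.25 and the regulatory median -0.13. Then 4 members fell (11.4%), against 6.02% of all genes: PSMA2, PSMA3, PSMA4 and PSMC6. With the deposited length the medians were -0.34 and -0.23, and the 4 members that fell, against 6.74% of all genes, were PSMA2, PSMA3, PSMC6 and PSMD13.

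Of 46 further genes of the pathway, in 7 lists, 3 fell (6.52%) and 4 rose (8.70%), close to the shares of all genes tested that did (6.97% and 7.51%). PSME2, a subunit of the activator that replaces the regulatory particle on immunoproteasomes, was the 1 of 5 activator and inhibitor genes to fall. It had 293.4, 227.7, 484.6 and 500.7 CPM in glucose oxidase cultures, against 436.3, 307.2, 836.4 and 624.7 CPM in controls (log2 change -0.53 ± 0.16, SE, adjusted p = 0.0251). Its partner PSME1 had 165.5, 222.8, 201.5 and 214.7 CPM in glucose oxidase cultures and 244.3, 174.9, 276.2 and 264.2 CPM in controls (log2 change -0.24, adjusted p = 0.34). POMP, the chaperone that drives maturation of the core, was the 1 of 6 assembly factors to fall. It had 183.6, 113.2, 420.9 and 426.4 CPM in glucose oxidase cultures, against 243.7, 196.2, 707.7 and 517.0 CPM in controls (log2 change -0.56 ± 0.16, SE, adjusted p = 0.0179).

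Among 13 further subunits, shuttle factors and bound enzymes, 1 fell and 1 rose. SEM1, the small lid subunit, fell, and had 88.7, 44.9, 167.1 and 180.6 CPM in glucose oxidase cultures, against 173.8, 77.1, 324.3 and 203.5 CPM in controls. At -0.72 ± 0.16 (SE, adjusted p = 0.00297) its log2 change was below that of every tested member. ADRM1, a ubiquitin receptor of the base, had 177.5, 163.8, 129.8 and 147.8 CPM in glucose oxidase cultures and 174.8, 177.1, 129.2 and 140.7 CPM in controls (log2 change 0.00, adjusted p = 0.992). FAF2, a cofactor of the VCP unfoldase, rose by 0.42 ± 0.14 on the log2 scale (SE, adjusted p = 0.049978), and none of the other VCP genes passed. With the term for sets PSME2, POMP, SEM1 and FAF2 did not pass (edgeR adjusted p = 0.0733, 0.076, 0.0697 and 0.133).

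Of the 7 genes tied to transcription of proteasome genes, the small MAF genes MAFF and MAFG rose and 0 fell. Both calls depend on the fit: by DESeq2 with the block MAFF did not pass (adjusted p = 0.172), and MAFG did not with the term for sets or with the principal length correction (edgeR adjusted p = 0.0772 and 0.189). MAFF had 143.0, 111.6, 109.7 and 93.5 CPM in glucose oxidase cultures, against 131.9, 111.3, 32.4 and 30.1 CPM in controls (log2 change 0.86 ± 0.22, SE, adjusted p = 0.00822). Its change differed between the sets of cultures, by 1.64 on the log2 scale (adjusted p = 0.000344 for the difference), with pair differences of 0.12 and 0.00 in pairs 1 and 2 and of 1.76 and 1.63 in pairs 3 and 4. MAFG had 58.0, 53.6, 45.7 and 45.0 CPM in glucose oxidase cultures, against 45.7, 51.5, 28.8 and 29.7 CPM in controls (log2 change 0.41 ± 0.14, SE, adjusted p = 0.048). NFE2L1 had 234.0, 265.7, 151.2 and 155.1 CPM in glucose oxidase cultures and 203.4, 187.0, 107.6 and 132.6 CPM in controls, higher in 4 of 4 pairs (log2 change 0.36 ± 0.15, SE, adjusted p = 0.101). NFE2L2, the master regulator of antioxidant genes, had 203.4, 172.6, 254.3 and 217.4 CPM in glucose oxidase cultures and 174.2, 172.2, 213.6 and 177.5 CPM in controls (log2 change 0.19 ± 0.15, SE, adjusted p = 0.412). Neither NFE2L1 nor NFE2L2 passed by edgeR, while by DESeq2 with the block NFE2L1 did (adjusted p = 0.0397) and NFE2L2 did not (adjusted p = 0.319). Their messages do not measure the activity of the proteins.

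The summed level of 9 urothelial and epithelial markers was 3839.4 to 4298.1 CPM in glucose oxidase cultures and 5116.8 to 7231.1 CPM in controls. Of these, KRT5, KRT8 and KRT19 fell, GATA3 rose, and TP63 was low, at 0.578 to 1.47 CPM in glucose oxidase cultures and 0.0481 to 1.10 CPM in controls. Summed leukocyte markers stayed at or below 0.506 CPM in every library. Fibroblast markers summed to 14.4 to 26.2 CPM in glucose oxidase cultures and 16.3 to 26.1 CPM in controls, nearly all of it COL1A1, and endothelial markers to 2.49 to 5.88 CPM and 3.24 to 4.98 CPM in the same groups. The part of the keratin difference in the proteasome result was not tested. In the authors' deposited table, 31 of the 35 tested members had a log2 change below 0, 0 had an adjusted p below 0.05 and 1, PSMB10, a p below 0.05.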

How the data were processed

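Gene counts of 8 SV-HUC1 libraries, 4 with glucose oxidase and 4 controls, were used as deposited. GRCh38.p13 was the build, and DESeq2 1.20.0, featureCounts 1.5.0-p3 and HISAT2 2.0.5 the tools, per the submitters' processing notes. Whether counting used strand is not given. The deposited FPKM values are per kilobase of summed exons, by the authors. The authors' deposited comparison table holds size-factor-normalised signal, a log2 fold change, a p-value and an adjusted p-value. No per-sample column was left unused.

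The test across genes was that of edgeR 4.0.16 in R 4.3.3 (quasi-likelihood test, TMM, filterByExpr, Benjamini-Hochberg adjustment over 17413 genes, threshold 0.05), with DESeq2 1.42.0 as an alternative. The scripts were tested on simulated data. The fit with the group alone is the first fit. Replicate numbers were taken to pair the libraries because all 4 same-number correlations of deviations from the group mean passed the minimum of 0.1, at 0.503 to 0.678. Other numbers of the same set correlated at 0.443 to 0.652 and passed this minimum too, so it cannot separate pairing by number from pairing by set. Glucose oxidase replicate 4 correlated more with control 3 (0.652) than with control 4 (0.503). The other glucose oxidase libraries correlated most with the control of their own number. No library repeated another of its group within sampling noise (chi-square over degrees of freedom 9.98 to 227). The design text speaks of independent experiments, and p-values measure the spread between these cultures only. CPM values are TMM-normalised, pair differences use a prior count of 2, and the SE comes from the F statistic.

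Names and coordinates equal those of GENCODE 29 for 58724 of the 58735 genes, and principal transcripts were taken from that release. Promoter sequences are from RefSeq (GRCh38.p14). The named genes are, per family, the 3 members of smallest and the 1 of largest adjusted p in the blocked fit, the catalytic subunits, the untested members, and, per list, up to 3 called genes in each direction plus 9 fixed names. Some genes of these lists are counted but not reported individually here. The members and lists were chosen with earlier results of these data known. Alternatives were RLE factors, library totals, no filter, DESeq2, leaving out replicates or single libraries, a term for sets, length corrections and dropping overlapping members.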

Additional observations from a re-analysis of the deposited data

Results flagged for a closer look

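In 4 of 76 groups of 4 libraries examined, a single library lay far from the rest by Dixon's test, where chance flags about 1 in 20 groups. PSMB10 had 52.6 CPM in glucose oxidase replicate 2, against 72.8 to 75.0 CPM in the other glucose oxidase cultures. PSMC5 had 54.6 CPM in glucose oxidase replicate 1, against 75.7 to 79.9 CPM in the others. PSMD2 had 235.6 CPM in glucose oxidase replicate 1, against 311.7 to 325.8 CPM in the others. PSMC4 had 62.5 CPM in control 3, against 71.0 to 72.4 CPM in the other controls. MAFF, outside the members, differed in its change between the sets of cultures by 1.64 on the log2 scale, replicates 3 and 4 minus replicates 1 and 2 (edgeR adjusted p = 0.000344).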

How the results depend on the processing

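With the replicate block 7 members and 2521 genes passed, against 0 and 0 with no replicate block. Without the block, 34 genes passed with no filter on low counts and 76 with DESeq2, and 0 members in each of the 16 alternatives without a block. With it, members passing numbered 12 with DESeq2, 8 with RLE factors, 5 with no low-count filter, 3 with library totals and 4 with either length correction. A term for the sets in place of the block gave 1 member and 1182 genes. With the block kept, leaving out each replicate number left 2 to 6 members and 1100 to 1886 genes. PSMA2 passed in all 4 of these, PSMA3 in all but that without replicate 2, PSMB3 in all but that without replicate 3, PSMB10, PSMC6 and PSMD13 in that without replicate 4 alone, and PSMD10 in that without replicate 1 alone. The core median stayed between -0.45 and -0.25 and the regulatory median between -0.26 and -0.07 in the alternatives of the blocked fit and with no block. Leaving out single libraries without the block moved them to between -0.63 and -0.14 and between -0.46 and -0.01. With library totals, 1675 genes rose and 535 fell, against 1308 and 1213 with TMM.

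Of 420 single-gene values under alternatives, 25 in 7 genes changed sign, none with a call under either setting. With library totals PSMD1 was at 0.02, PSMD2 at 0.07, PSMD7 at 0.10 and PSMD8 at 0.05. With the deposited length PSMA6 was at -0.03, PSMD5 at 0.00 and PSMD7 at 0.06, and with the principal length PSMB6 at 0.00, PSMD5 at -0.05, PSMD7 at 0.10 and PSMD8 at 0.06. PSMD5 was at -0.01 with RLE factors and -0.14 with no replicate block, and PSMD7 at 0.01 with no filter. Leaving out each replicate number gave -0.19 to 0.28 for PSMA6, -0.29 to 0.10 for PSMD1, -0.14 to 0.03 for PSMD2, -0.16 to 0.15 for PSMD5, -0.10 to 0.12 for PSMD7 and -0.19 to 0.03 for PSMD8. The cause was not tested.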

Other observations

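The genes that make ubiquitin itself and activate it gave no call in either direction among 6 tested. RPS27A, a fusion of ubiquitin with a ribosomal protein, had a log2 change of -0.50 ± 0.18 and was lower in 4 of 4 pairs (SE, edgeR adjusted p = 0.0639). The list's median log2 change was -0.28, against -0.01 over all genes tested.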
